A study of Arabidopsis thaliana with 16 samples.

Results

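Introns held 28280 of the 264371 nuclear summits called with the PLETHORA (PLT) transcription factors PLT3, PLT5 and PLT7 in DNA affinity purification sequencing (DAP-seq). A summit is the base of highest enrichment within a peak. It was counted as intronic when it lay inside a protein-coding gene of the RefSeq TAIR10.1 annotation and in no exon of any gene. The 3 PLTs and the control protein GFP, each made in vitro with a 3xFLAG tag, were incubated with genomic DNA of Col-0 inflorescence meristems (IMs, plants of 4 to 8 weeks on soil) or shoot apical meristems (SAMs, 9-day seedlings). Each protein and tissue had 2 replicates of 500 pooled meristems, which gave 12 PLT and 4 GFP libraries, and each library began with 100 ng of DNA and 15 cycles of amplification. The bait was added to purified DNA, so the lists describe sequences (with their DNA methylation) that a PLT can hold in a tube, and not binding in a cell. Across the libraries, 3837 to 32116 PLT peaks and 5026 to 9933 GFP peaks lay on the 5 nuclear chromosomes, and the read depth behind them is not part of the lists. The GFP libraries held 2099 intronic summits of 27157.

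PLTs belong to the AINTEGUMENTA-LIKE clade of the AP2 family, whose paired AP2 domains contact an unusually long DNA element. In the shoot they act on organ positioning and outgrowth, and in the root on the stem cell niche. Introns are transcribed and then removed by splicing, but their DNA can hold elements that transcription factors read. The large intron of AGAMOUS, which carries sites for LEAFY and WUSCHEL, is the classical case in Arabidopsis, and introns close to the start of a gene can raise its expression. Intronic DNA is rich in A and T compared with coding DNA.

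The sequences at 7 intronic sites show what most strong sites had in common. A site joins intronic PLT summits of 1 intron in which neighbouring summits lie at most 100 bp apart. Each line gives the plus strand of TAIR10.1 to 50 bp on either side of the median summit, with the best match to a 16 bp matrix of base frequencies in capitals. The matrix was learned here from the 2000 strongest summits outside introns of the first PLT7 IM replicate, and its letters with a frequency of at least 50% read NCACGNNTNNCGAGGN. BEH4 held the strongest site that all PLT libraries shared without a GFP peak. The AT4G38120 match lay 0.5 bp from the summit, ASL1 is an intron in the 5′ leader, ICL and UBP8 are metabolic and ubiquitin-related genes with sites in all 12 PLT libraries, BBM encodes a relative of the baits, and RECQL2 held several separate sites. The matches of AT4G38120, BBM and RECQL2 lie on the minus strand, so their capitals are the reverse complement of the matrix, and the windows of these 3 genes run past the intron into the neighbouring exon.
BEH4 intron 1, chr1:29600461-29600561: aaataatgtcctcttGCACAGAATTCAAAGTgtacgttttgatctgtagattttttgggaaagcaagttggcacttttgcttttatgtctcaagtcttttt
AT4G38120 intron 8, chr4:17894008-17894108: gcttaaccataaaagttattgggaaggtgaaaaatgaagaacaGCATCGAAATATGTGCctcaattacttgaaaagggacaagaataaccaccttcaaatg
ASL1 intron 1, chr5:26706379-26706479: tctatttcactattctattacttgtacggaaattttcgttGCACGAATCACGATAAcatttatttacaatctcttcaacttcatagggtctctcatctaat
ICL intron 2, chr3:7655020-7655120: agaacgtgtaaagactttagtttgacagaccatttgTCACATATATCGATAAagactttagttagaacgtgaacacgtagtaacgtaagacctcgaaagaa
UBP8 intron 12, chr5:7291687-7291787: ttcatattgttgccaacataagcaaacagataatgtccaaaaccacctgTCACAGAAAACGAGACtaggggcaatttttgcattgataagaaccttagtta
BBM intron 1, chr5:5745213-5745313: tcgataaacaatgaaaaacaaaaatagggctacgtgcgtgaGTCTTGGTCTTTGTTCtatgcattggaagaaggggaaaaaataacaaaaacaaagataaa
RECQL2 intron 4, chr1:11233561-11233661: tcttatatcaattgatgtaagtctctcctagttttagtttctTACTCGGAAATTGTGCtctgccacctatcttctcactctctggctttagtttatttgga

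The share of summits in introns was higher with each PLT than with GFP, but it stayed below the share of the genome that introns take. Introns made up 15.0% of the nuclear bases, in 115134 introns of 21743 genes. With PLT3, 11.1% and 11.1% of the nuclear summits of the IM replicates and 10.8% and 10.5% of those of the SAM replicates were intronic. PLT5 gave 10.2% and 9.93% in the IM and 9.26% and 8.68% in the SAM. PLT7 gave 10.7% and 10.7% in the IM and 10.7% and 10.9% in the SAM. For GFP the values were 8.20% and 7.55% in the IM and 7.64% and 7.15% in the SAM. Every PLT library was thus above every GFP library. The means were 10.9% ± 0.316 for PLT3, 9.52% ± 0.692 for PLT5 and 10.8% ± 0.132 for PLT7, against 7.64% ± 0.434 for GFP (SD, n = 4 each). The differences of 3.25, 1.89 and 3.12 percentage points had an adjusted p of 0.0286 each in two-sided exact permutation tests, the smallest value that 4 against 4 libraries can give. Leaving out the first or second GFP SAM replicate or the second GFP IM replicate brought the adjusted p of the PLT5 difference to 0.0571, with differences of 1.89, 1.72 and 1.86 points.

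The direction turned round when only summits inside protein-coding genes were counted. Introns held 18.7% ± 0.202 of these summits for PLT3, 19.9% ± 1.36 for PLT5 and 18.5% ± 0.365 for PLT7, against 49.8% ± 5.63 for GFP (SD, n = 4 each), while introns form 27.7% of the bases of these genes. The differences were −31.0, −29.8 and −31.3 points (adjusted p = 0.0286 each, exact permutation test). The denominators differed greatly between the proteins. Inside protein-coding genes lay 58.2% of the PLT3 summits, 47.8% of the PLT5 summits and 58.2% of the PLT7 summits, against 15.4% of the GFP summits. Coding exons, 0.965 to 1.39 times as frequent among PLT summits as among bases, were nearly empty of GFP summits, at 0.0228 to 0.0605 times. PLT summits fell in introns at 0.579 to 0.743 times the share of bases, and GFP summits at 0.477 to 0.548 times. Among the places within a gene, introns therefore ranked below coding exons in each PLT library and above them in each GFP library.

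**Figure D1:**
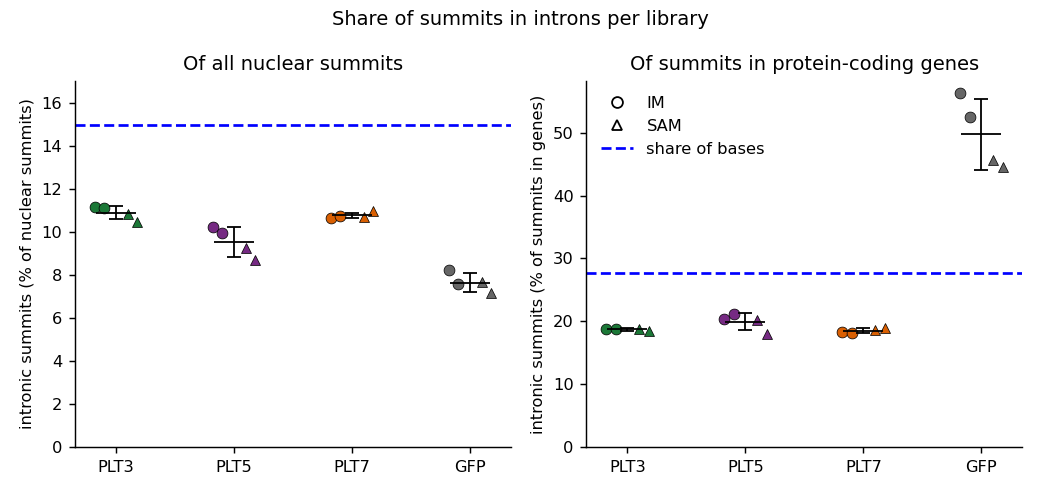
Intronic summits per library as a percentage of all nuclear summits (left) and of summits inside protein-coding genes (right); circles are IM and triangles SAM libraries, bars the mean and SD of 4 libraries, and the dashed line the share of bases. PLT libraries lie at 8.68% to 11.1% and GFP libraries at 7.15% to 8.20% on the left, and the order is the opposite on the right.

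Among the PLTs, PLT5 had the lowest share. PLT5 was 1.36 points below PLT3 and PLT7 1.24 points above PLT5 (adjusted p = 0.0429 each over 3 pairs, exact permutation test). PLT7 and PLT3 differed by −0.124 points (adjusted p = 0.514, exact permutation), less than the spread between their libraries. The PLT5 libraries had the fewest peaks among the PLTs, 3837 to 10427 on the nuclear chromosomes. With the same number of peaks in each library, the PLT5 differences were −0.625 points from PLT3 (adjusted p = 0.200, exact permutation) and 1.45 points to PLT7 (adjusted p = 0.0857), so both calls were lost. Both were also lost when any 1 of the 4 libraries of the other PLT was left out (adjusted p = 0.0857, exact permutation, with differences of −1.27 to −1.50 and 1.17 to 1.27 points). Between the tissues, IM libraries averaged 10.6% ± 0.482 and SAM libraries 10.14% ± 0.942 (SD, n = 6 each), a difference of 0.489 points (p = 0.0556, exact permutation within baits). By bait, the IM and SAM means were 11.1% and 10.6% for PLT3, 10.08% and 8.97% for PLT5, and 10.7% and 10.8% for PLT7. This difference was 0.598 to 0.650 points with a p of 0.0185 to 0.0463 without the first PLT3 SAM replicate or without either PLT7 SAM replicate, and 0.195 points without the second PLT5 SAM replicate.

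PLT and GFP summits were found in introns of different length. The median length of the intron holding a PLT summit was 200 to 291 bp per library, near the value of 187 bp at which a random intron base lies, against 508 to 545.5 bp for GFP. Introns of 500 bp or more held 19.6% to 28.9% of the intronic PLT summits and 51.3% to 55.0% of those of GFP, and have 17.4% of the intron bases. Relative to the whole nuclear genome of the same library, PLT7 summits had a density of 0.634 ± 0.0200 in later introns below 100 bp and 0.773 ± 0.0587 in later introns of 1000 bp or more. GFP had 0.0943 ± 0.0411 and 2.08 ± 0.434 in the same introns (SD, n = 4 each). GFP density thus climbed with intron length over a far wider range than PLT7 density.

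PLT peaks were also wider than most of the introns that held their summits. Peaks with an intronic summit had a median width of 283 to 438 bp with PLTs and 249 to 283 bp with GFP. The whole peak lay inside 1 intron for 13.8% ± 3.26 (PLT3), 22.7% ± 1.94 (PLT5) and 14.2% ± 1.59 (PLT7) of them, against 52.9% ± 1.70 for GFP (SD, n = 4 each). The differences of −39.1, −30.3 and −38.8 points had an adjusted p of 0.0286 each (exact permutation test). Most intronic PLT peaks therefore reached into a neighbouring exon. Of the PLT summits, 15.4% to 20.1% lay within 15 bp of an exon, against 3.82% to 7.12% of the GFP summits, and 19.0% of all intron bases lie that close.

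First introns, the ones nearest the gene start, held more PLT summits than their bases, and fewer than with GFP. They have 27.1% of the intron bases. In the IM replicates they took 30.9% and 31.2% of the intronic PLT3 summits, 33.7% and 32.7% of those of PLT5 and 32.3% and 32.01% of those of PLT7, against 43.3% and 43.1% with GFP. In the SAM replicates they took 34.1% and 32.4% (PLT3), 35.6% and 34.1% (PLT5) and 33% and 33.5% (PLT7), against 48.5% and 44.7% with GFP. No PLT library reached a GFP library, and the differences of the means were −12.8, −10.9 and −12.2 points (adjusted p = 0.0286 each, exact permutation test). The smallest library, with 331 intronic summits of known rank, had a 95% Wilson interval of 29.2% to 39.4%, which covers counting error only. Within the PLTs, the first-intron share was lower in the IM, at 32.1% ± 1.02, than in the SAM, at 33.8% ± 1.09 (SD, n = 6 each; difference −1.66 points, p = 0.00926, the smallest that the exact permutation within baits can give). With peak midpoints in place of summits this difference was −0.794 points (p = 0.176, exact permutation).

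First introns are longer than later ones, with medians of 135 and 96 bp. When first and later introns were compared within 5 classes of length and averaged with the same weights, the density of PLT summits was still higher in first introns. The ratio of first to later was 1.24 ± 0.0644 for PLT3, 1.23 ± 0.0627 for PLT5 and 1.26 ± 0.0369 for PLT7, against 1.32 ± 0.142 for GFP (SD, n = 4 each). Every one of the 16 libraries was above 1, the lowest at 1.147. On the log2 scale the PLTs differed from GFP by −0.09, −0.10 and −0.06 (adjusted p = 0.514, 0.514 and 0.571, exact permutation test), so a difference between PLTs and GFP was not seen once length was held equal. The position along the gene showed the same order. PLT7 density was 1.03 ± 0.0113 in first introns and 0.741 ± 0.0543 in later introns from 250 to below 500 bp of the gene start, and 0.836 ± 0.0207 and 0.625 ± 0.0111 from 1000 to below 2000 bp.

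**Figure D2:**
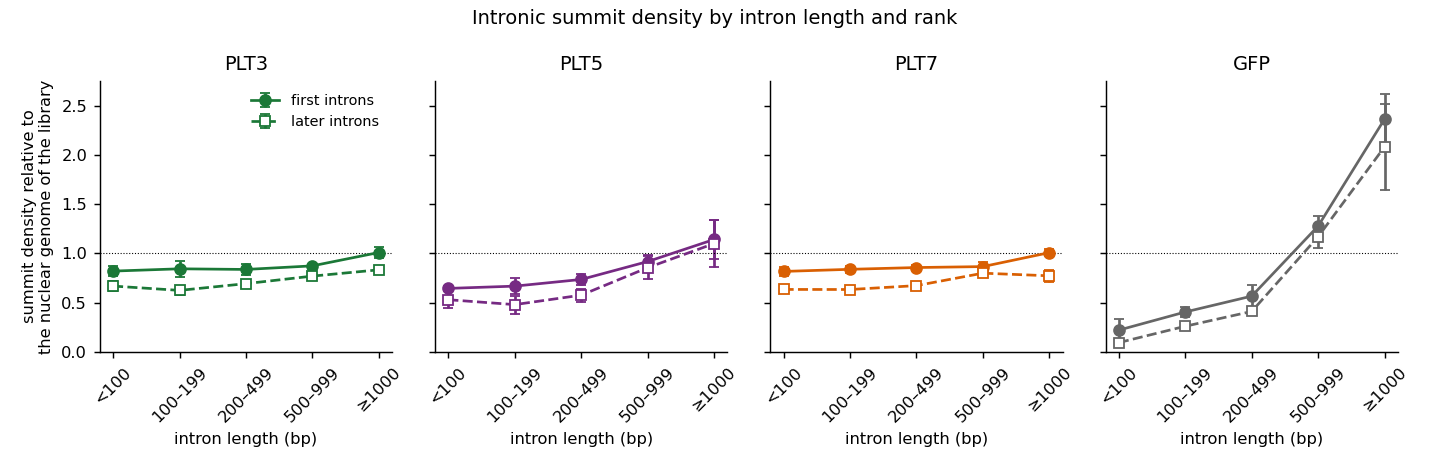
Density of intronic summits relative to the nuclear genome of the same library (y axis) by intron length in bp (x axis) for PLT3, PLT5, PLT7 and GFP; filled symbols are first and open symbols later introns, with the mean and SD of 4 libraries. First introns mostly lie above later introns, and GFP climbs to 2.37 in first introns of 1000 bp or more. At 1000 bp or more, later introns were above first introns in some single libraries. These were the first and second PLT5 SAM replicates (1.41 against 1.04, and 0.934 against 0.904) and the second GFP SAM replicate (2.49 against 2.01).

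Introns in the 5′ leader, upstream of the start codon, took more PLT summits than their 5.58% of the intron bases. The mean shares were 7.85% ± 0.776 for PLT3, 9.34% ± 0.852 for PLT5 and 7.83% ± 0.438 for PLT7, and 10.05% ± 1.96 for GFP (SD, n = 4 each). The differences from GFP were −2.20, −0.709 and −2.23 points (adjusted p = 0.129, 0.571 and 0.0857, exact permutation test). Introns downstream of the stop codon took 0.653% to 1.51% of the intronic PLT summits and 1.60% to 3.17% of those of GFP, with 1.13% of the bases. Median fold enrichment of PLT7 summits was 3.89 ± 0.152 in leader introns, 3.58 ± 0.104 in introns between coding exons and 3.31 ± 0.165 in trailing introns, and 2.62, 2.53 and 2.38 with PLT3. These values were not tested against each other.

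Enrichment hardly differed between intronic and other summits. The fold enrichment over the local background that the peak caller reports had an intronic median of 2.55 ± 0.0213 with PLT3, 2.04 ± 0.119 with PLT5 and 3.61 ± 0.0989 with PLT7, and 4.31 ± 0.271 with GFP (SD, n = 4 each). This value depends on the depth and peak calling of a library, and levels are not comparable between baits. Within a library, the log2 ratio of the intronic to the other median averaged −0.012 over the 12 PLT libraries, was below 0 in 7, above 0 in 2 and exactly 0 in 3 (p = 0.0273, two-sided exact permutation test by sign flips). The call was lost when any of 4 libraries was left out, the second PLT3 IM, the second PLT5 SAM and both PLT5 IM replicates (p = 0.0547, exact permutation, mean −0.0096 to −0.011). Medians in coding exons were slightly higher, at 2.60 (PLT3), 2.11 (PLT5) and 3.79 (PLT7), and those between genes slightly lower, at 2.52, 2.02 and 3.39. First and later introns differed by a log2 ratio of −0.0066 (p = 0.313, exact permutation test), with 5 libraries above 0 and 6 below. The strongest intronic peaks reached 6.50 to 7.14 with PLT3, 5.47 to 6.39 with PLT5 and 9.42 to 11.5 with PLT7. In both PLT3 SAM replicates, the second PLT3 IM replicate and the first PLT5 SAM replicate the strongest peak was in intron 24 of AT2G08986. That site overlapped a GFP peak and held no matrix match.

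The DNA at the summits separated PLT from GFP more sharply than the position. The DNA within 50 bp of an intronic summit had a mean GC content of 35.1% ± 0.133 with PLT3, 34.7% ± 0.643 with PLT5 and 34.9% ± 0.0442 with PLT7, against 23.1% ± 1.25 with GFP (SD, n = 4 each). The differences of 11.9, 11.6 and 11.8 points had an adjusted p of 0.0286 each (exact permutation test). Windows tiled over all introns averaged 33.8%, so PLT summits lay slightly above ordinary introns and GFP summits well below them. At coding exons the PLT summits had 44.2% to 44.8% GC.

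The matrix matched at 42.2% and 40.3% of the intronic summits of the PLT3 IM replicates and at 44.4% and 43.4% of those of the SAM replicates. PLT5 gave 44.5% and 42.4% in the IM and 55.2% and 60.4% in the SAM, and PLT7 47.8% and 47.0% in the IM and 49.6% and 48.6% in the SAM. The GFP values were 2.45% and 2.50% in the IM and 3.65% and 2.11% in the SAM. The score a match needed was set so that 5% of the 176714 tiled intron windows had one. All 12 PLT libraries were thus at least 40.3% and all 4 GFP libraries at most 3.65%, below the tiled windows. The mean differences from GFP were 39.9, 47.9 and 45.6 points for PLT3, PLT5 and PLT7 (adjusted p = 0.0286 each, exact permutation test). No intronic summit was used to learn the matrix.

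**Figure D3:**
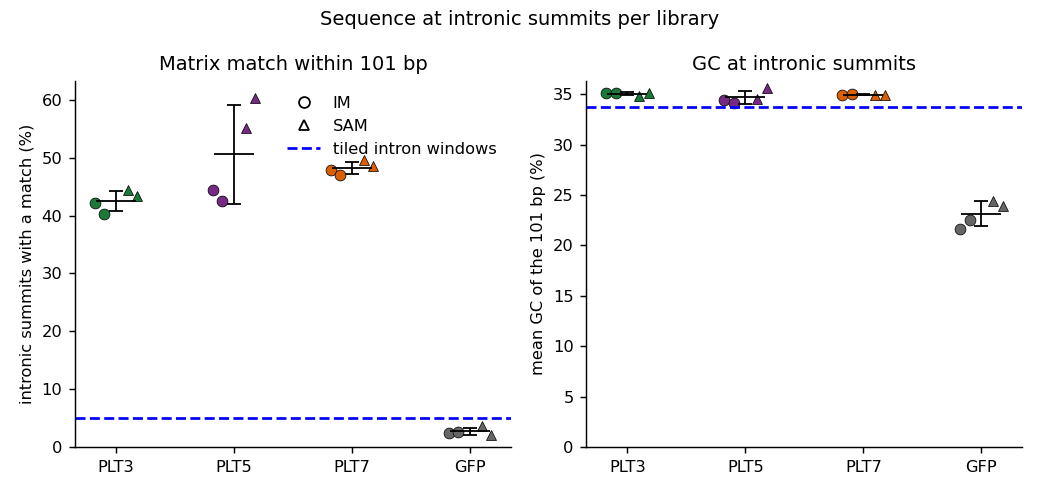
Percentage of intronic summits with a matrix match within 50 bp (left) and mean GC percentage of the same DNA (right) per library; circles are IM and triangles SAM libraries, bars the mean and SD of 4 libraries, the dashed line tiled intron windows. PLT libraries lie at 40.3% to 60.4% and GFP libraries at 2.11% to 3.65% on the left.

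Whether the element was more or less frequent at intronic than at other summits depended on how it was defined. With the matrix, 47.1% ± 5.81 of the intronic and 44.5% ± 4.42 of the other summits had a match (SD, n = 12 libraries), and the intronic share was higher in 12 of 12 libraries, by 2.66 points on average (p = 0.000488, the smallest value of the exact sign-flip permutation, adjusted p = 0.000488 over 4 such comparisons). At windows of 30% to 40% GC the difference was 4.07 points in the same direction (adjusted p = 0.000488, exact permutation, higher in 12 of 12). With peak midpoints in place of summits the values were −1.50 points (adjusted p = 0.00391, exact permutation) and −0.214 points (adjusted p = 0.611). A string of fixed letters (CNC, 3 free bases, TNCC, any base, A, any base, G, on both strands) was found at only 3.56% of the intronic and 4.19% of the other PLT summits, at 0.232% of the tiled intron windows and at 0.00% to 0.192% of the intronic GFP summits. By this string the intronic share was lower in 11 of 12 libraries, by 0.629 points (p = 0.00488, exact permutation by sign flips), and higher by 0.806 points in the first PLT5 SAM replicate. With the same number of peaks in each library this difference was −0.309 points (p = 0.144, exact permutation), lower in 8 of 12 libraries, so the call was lost. With the matrix, coding exon summits had shares of 43.5%, 56.6% and 48.5% for PLT3, PLT5 and PLT7, and summits between genes 36.7%, 38.4% and 40.4%. Intronic summits, at 42.5%, 50.6% and 48.2%, lay between these places for each bait.

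Matches were concentrated at the strong peaks and close to the summit. Among the 25% of intronic summits with the highest fold enrichment, 59.3% (PLT3), 70.4% (PLT5) and 67.9% (PLT7) had a match, against 26.3%, 29.4% and 28.7% among the 25% with the lowest. The difference averaged 37.8 points (adjusted p = 0.000488, exact permutation by sign flips, higher in 12 of 12 libraries), whereas the 4 GFP libraries had differences of −2.66 to 0.961 points. First-intron summits had a match in 49.3% and later-intron summits in 46.0% of cases, 3.39 points more (adjusted p = 0.000488, exact permutation, higher in 12 of 12), but with the same number of peaks in each library this was 0.798 points (adjusted p = 0.461). The centre of the best match lay at a median of 5.5 bp from the summit with PLT7 in each of its 4 libraries, 6.5 to 8.5 bp with PLT3 and 11.5 to 12.5 bp with PLT5. Within 10 bp lay 73.1% ± 2.53 of the PLT7 matches, 58.3% ± 3.97 of the PLT3 matches and 42.0% ± 1.33 of the PLT5 matches (SD, n = 4 each). In the direction written above, 34.5% to 41.8% of the matches at intronic PLT summits were on the strand of the gene. Of all 10011 matches in introns, 31.2% were, so most intronic matches are on the opposite strand with or without a summit.

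Most matches in introns had no summit, and the share with one climbed with the score of the match. Scores are log2 odds of the matrix over base composition, in bits. Of the 389 intronic matches with a score of 13 or more, 49.9% ± 6.90 had a PLT3 summit within 50 bp, 24.5% ± 4.36 a PLT5 summit and 64.4% ± 2.17 a PLT7 summit, against 0.193% ± 0.129 for GFP (SD, n = 4 each). Of the 5483 matches with a score below 9, 8.57%, 1.68% and 9.38% did, against 0.169% for GFP. At the same score a summit was less frequent in introns than in coding exons. The matrix was learned at summits outside introns, and these were kept among the matches of the other places. Each of them had a summit in the first PLT7 IM replicate by choice, and the p-values below do not allow for this. All libraries were scored on the same matches, so these p-values cover agreement between libraries and not the sampling of matches. For scores of 13 or more the means over the 12 PLT libraries were 46.3% in introns and 52.1% in coding exons, a difference of −5.80 points that was negative in 12 of 12 libraries (adjusted p = 0.000651 over 8 comparisons, exact permutation by sign flips). The difference from matches between genes was −5.45 points, negative in 11 of 12 libraries (adjusted p = 0.00112, exact permutation). In the lower classes of score the intronic share was also below that of coding exons in 12 of 12 libraries, by 3.30 to 4.45 points. For scores of 11 to 13, 9 of 12 libraries were below the matches between genes, and 3 were above.

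**Figure D4:**
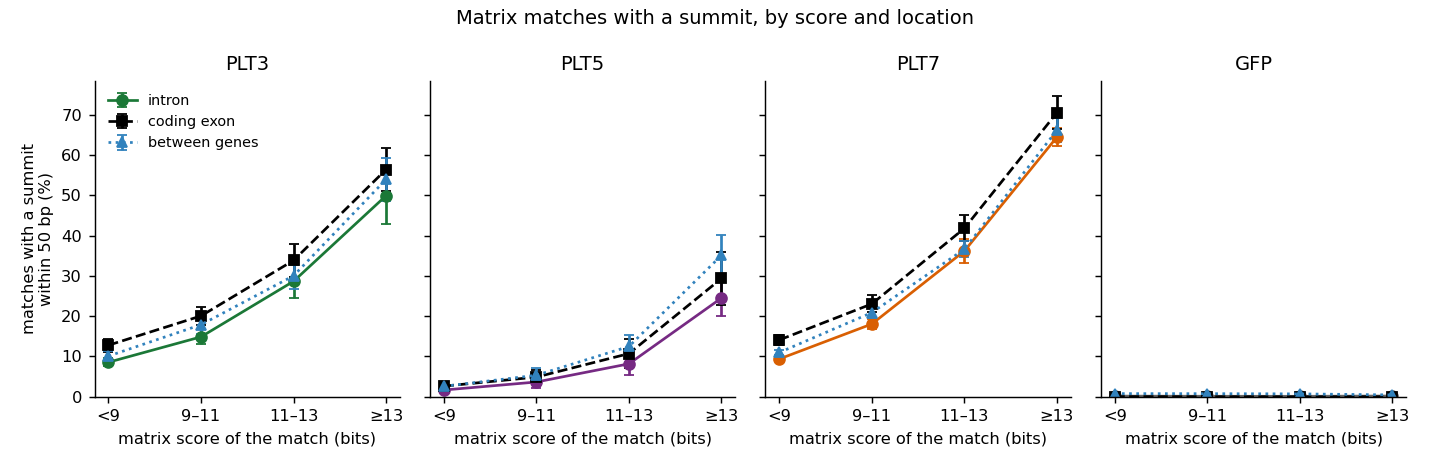
Percentage of genomic matrix matches with a summit of the library within 50 bp (y axis) by the score of the match in bits (x axis) in introns, coding exons and between genes for each bait; points and bars are the mean and SD of 4 libraries. PLT7 reaches 64.4% of the intronic matches with a score of 13 or more, and GFP averages at most 0.193% in introns.

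Few intronic PLT peaks overlapped a GFP peak. Per library, 2.35% to 8.07% of the peaks with an intronic summit shared at least 1 bp with a GFP peak of the same tissue, against 5.29% to 15.2% of all nuclear peaks, and the intronic share was the lower one in each of the 12 libraries. Intronic peaks recurred in the other replicate nearly as often as all peaks did. With PLT7, 77.6% to 88.3% of the intronic and 77.7% to 89.3% of all nuclear peaks overlapped a peak of the other replicate, and with PLT5 39.9% to 67.9% and 41.4% to 72.0%.

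Joined over the 12 PLT libraries, the intronic summits formed 7980 sites in 5960 genes, which is 27.4% of the 21743 protein-coding genes with an intron. Of the sites, 3030 were found in 1 library, 2039 in at least 6 and 90 in all 12. A site in at least 6 libraries was held by 1882 genes (8.66%), and a site in all 12 by 89 genes (0.409%). Of the 90 sites in all 12 libraries, 75 overlapped no GFP peak, 26 were in a first intron and 9 in a leader intron. A site counted as overlapping when any of its peaks did. That held for 16.7% of these sites, 6.21% of those in 8 libraries, 7.79% of those in 1 and 7.46% of all sites. First introns held 28.9%, 36.9% and 27.5% of the sites in 12, 8 and 1 libraries. First and leader introns have 27.1% and 5.58% of the intron bases. Matrix matches became more frequent with the number of libraries, from 23.8% of the sites found in 1 library to 54.0% of those in 8 and 80.0% of those in 12. The median length of the intron was 131 bp, 279 bp and 431 bp for the same sites, and their GC content stayed at 34.5%, 34.9% and 35.6%. PLT3 and PLT7 shared most of their sites, with 3871 in common of 5982 with PLT3 (64.7%) and 5131 with PLT7 (75.4%). PLT5 had 2019 sites, of which 1129 were also found with PLT7 (55.9% of the PLT5 and 22.0% of the PLT7 sites) and 738 with PLT5 alone. In all PLT3 and PLT7 IM libraries and in no SAM library, 15 sites were found, and 3 sites showed the reverse, beside 878 found in all 8 PLT3 and PLT7 libraries.

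The 12 strongest sites shared by all PLT libraries without a GFP peak were in genes of varied function, and 11 of them held a matrix match. BEH4, which encodes a relative of the brassinosteroid-responsive factors BES1 and BZR1, had its site in its only intron (chr1:29600070-29600777), 1162 bp from the gene start. Fold enrichment there was 6.68 and 5.04 in the IM and 4.99 and 4.97 in the SAM with PLT3, 2.52 and 3.20 in the IM and 2.93 and 3.56 in the SAM with PLT5, and 11.5 and 10.6 in the IM and 10.5 and 8.86 in the SAM with PLT7. Among sites without a GFP peak it was the highest of both PLT3 and PLT7. By the same rule the highest of PLT5 was AT3G51620, in the third of 8 introns, with PLT5 values of 3.18 and 2.79 in the IM and 3.10 and 3.48 in the SAM. In HDG1, a homeodomain leucine-zipper gene of the epidermis, the sixth of 8 introns held a site with PLT7 values of 10.02 and 8.32 in the IM and 10.3 and 8.18 in the SAM. ASL1, of the LATERAL ORGAN BOUNDARIES family, had its site in a leader intron 644 bp from the gene start, with PLT7 values of 9.30 and 8.78 in the IM and 10.097 and 7.11 in the SAM. KAN3, a member of the KANADI family that is known for organ polarity, was the only 1 of the 12 without a match, with PLT7 values of 9.09 and 6.73 in the IM and 8.74 and 6.41 in the SAM. At each of the 12 sites every PLT7 library was above every PLT3 library, and every PLT3 library above every PLT5 library, which is also the order of the overall intronic medians. Since levels are not comparable between baits, this order is no measure of binding strength.

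The other members of this group covered proteases, enzymes and proteins of unassigned role. Values here are geometric means of the fold enrichment over the 12 libraries. DEG7, a DegP protease, had 4.89 in the seventh of 23 introns. ICL, the isocitrate lyase of the glyoxylate cycle, had 4.62 in intron 2 of 4. UBP8, a ubiquitin-specific protease, had 4.50 in intron 12 of 15, and the myotubularin-like phosphatase gene MTM1 had 4.55 in intron 7 of 18. AT4G38120 (ARM repeat protein), AT2G13720 (putative DNA topoisomerase) and AT4G04200 (signal peptidase subunit) had 4.93, 4.70 and 4.64. In these 12 genes the site lay in intron 1 in 3 cases.

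**Figure D5:**
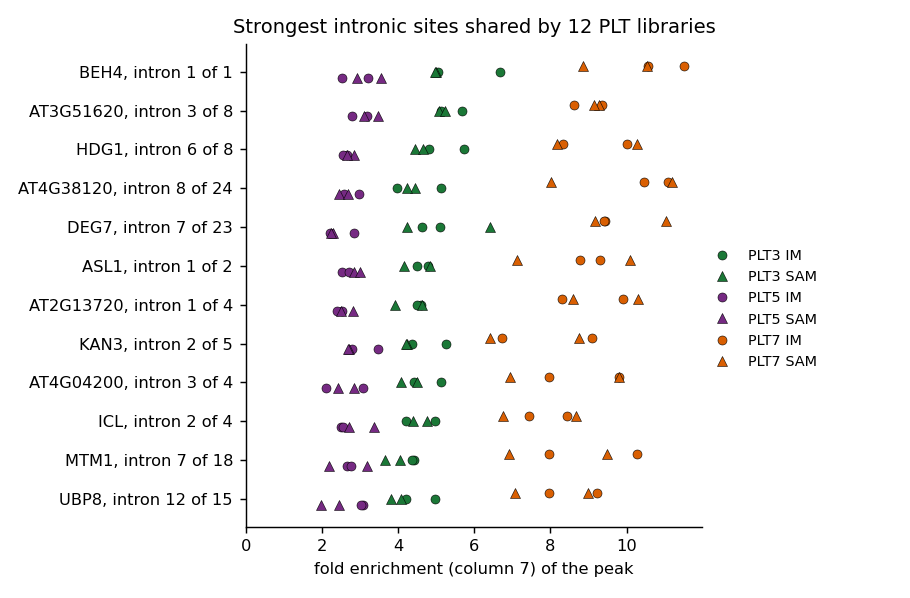
Fold enrichment of the peak (x axis) at the 12 strongest intronic sites present in all 12 PLT libraries (rows, with the rank of the intron); circles are IM and triangles SAM libraries. PLT7 lies at 6.41 to 11.5, PLT3 at 3.65 to 6.68 and PLT5 at 1.98 to 3.56.

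Some genes held several intronic sites. AT1G58060, annotated as an RNA helicase with 33 introns, had 4 sites found in at least 6 libraries, in introns 7, 13, 26 and 28, and the one in intron 26 was in all 12. RECQL2, a RecQ helicase and 1 of 8 genes with 3 such sites, had them in introns 4, 13 and 16 of 16, all with a matrix match and none with a GFP peak. AT2G08986, an uncharacterized protein gene with 45 introns, had 4 in introns of 108 to 113 bp, and 3 of them overlapped a GFP peak. None of its 4 sites held a matrix match. At its site in intron 16 the fold enrichment was 4.95 and 5.23 in the IM and 5.12 and 5.30 in the SAM with PLT3, 4.48 and 4.62 in the IM and 4.63 and 4.78 in the SAM with PLT5, and 5.50 and 5.30 in the IM and 5.31 and 5.84 in the SAM with PLT7. The range over baits was thus narrower there than at the shared sites above. At its site in intron 24, PLT3 reached 7.14 and PLT5 6.25 in the second SAM replicate, above every value of these baits at the shared sites. The DNA within 50 bp of the 4 AT2G08986 summits was nearly the same over long stretches. Peaks in such copies could share reads, and whether these sites are separate was not tested.

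Genes known for regulatory introns often held a site. Of 12 such genes, 10 had a site in at least 1 library, 5 in at least 6 and 0 in all 12, beside 27.4%, 8.66% and 0.409% of all genes with an intron. These 12 genes had 6 to 10 introns each, and their longest intron measured 110 to 3493 bp. The shares of all genes were not matched for the number or length of introns, so the counts cannot be told apart from an effect of intron length. STK, a MADS-box gene of ovule identity, had a site in 10 libraries in intron 2, with PLT7 values of 5.96 and 6.04 in the IM and 6.37 and 5.31 in the SAM, but this site overlapped a GFP peak. AGL24, a MADS-box gene that promotes flowering, had one in 10 libraries in intron 2 with PLT7 values of 6.74 and 6.03 in the IM and 6.48 and 5.97 in the SAM. AGL20 (SOC1), also a promoter of flowering, had one in 8 libraries in intron 2, SHP1 one in 9 in intron 4 that also overlapped a GFP peak, and AGL8 (FRUITFULL) one in 6 in intron 1. The floral repressor FLC had a site in 5 libraries in its first intron of 3493 bp, 2208 bp from the gene start, with 3.23 and 3.16 in the PLT7 IM libraries. SVP had one in 5 libraries in intron 1. AG, whose large intron measures 2835 bp here, and AP1 had none, and AG had 2 GFP summits.

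Genes listed for an intron near the gene start that is known to raise expression were counted over all their introns. Of 14 listed genes 12 had an intron by the definition used, 2 of these had a site in at least 1 library (TRP1 in 5 and AT1G07920 in 1) and 0 in at least 6, beside 27.4% and 8.66% of all genes with an intron. With 12 genes these counts lie near that background. The TRP1 site lay in the first intron of that gene, which measures 110 bp and lies between coding exons. The AT1G07920 site lay in a leader intron. The ubiquitin gene UBQ10 and the actin genes ACT1, ACT2, ACT7 and ACT8 had none. The longest intron of the 12 genes measured 78 to 645 bp.

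Of 25 meristem and phyllotaxis genes with an intron, 14 had a site in at least 1 library, 5 in at least 6 and 0 in all 12, beside 27.4%, 8.66% and 0.409% of all genes with an intron. These shares of all genes were again not matched for the number or length of introns. Relatives of the baits were among the genes with a site. BBM (BABY BOOM, a PLT-clade gene of embryo and root) had a site in 10 libraries in its first intron of 116 bp, with PLT3 values of 4.63 and 5.06 in the IM and 4.24 and 4.30 in the SAM and PLT7 values of 6.06 and 5.75 in the IM and 6.76 and 4.96 in the SAM. PLT2, a master gene of the root stem cell niche, had one in 10 libraries in intron 2, with PLT7 values of 5.42 and 3.87 in the IM and 6.03 and 4.79 in the SAM, and no matrix match. PLT1 had one in 5 libraries in intron 6, all 4 of PLT7 among them. AIL7, the gene of PLT7 itself, had one in 4 libraries in intron 4, with values of 1.66 to 2.17. AIL6 and AIL5, the genes of PLT3 and PLT5, had none.

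The remaining members of this list acted in cytokinin and auxin signalling and in the meristem. AHP3, a phosphotransfer protein of cytokinin signalling, had a site in intron 5 in all 8 PLT3 and PLT7 libraries, with PLT7 values of 4.06 and 4.88 in the IM and 4.15 and 3.802 in the SAM. STM, the homeobox gene that maintains the meristem, had one in 7 libraries in intron 2, and NPY2, of the NPH3 family that acts in organogenesis with auxin, had one in 7 in intron 2. NPY4 had one in 3 PLT7 libraries in intron 3. NPY3, AHP1, AHP5, MP and ETT had sites in no more than 1 library each. The remaining AHP and NPY genes of this list had no site in any PLT library. WUS, CUC2, YUC1 and YUC4, with functions in stem cell fate, organ boundaries and auxin synthesis, had none.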

How the data were processed

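Peaks were taken from 16 deposited lists, 1 per library. Per the labels and the study's methods, the authors trimmed reads (fastp 0.23.2), mapped them to TAIR10 (BWA 0.7.17, SAMtools 1.15) and called peaks per library with MACS3 without a control library (q-value threshold 0.1, maximum gap 100 bp). In the lists, replicates were not yet combined and peaks shared with GFP were still present. Deposited values used were the fold enrichment of the peak (a ratio to local background), the −log10 p-value and the −log10 q-value. Read depth is unknown here, and intervals cover counting error only.

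Summits were placed on the RefSeq TAIR10.1 annotation, whose sequence names match and whose chromosome ends no peak passed. Introns were gaps between the joined exons of all transcripts, ranked from the gene start. Summits in introns of overlapping genes that could not be ranked (53 in the PLT libraries) were left out of rank comparisons. Shares were compared over libraries by two-sided exact permutation (4 against 4, or tissue within bait) or exact sign flips within the 12 PLT libraries, with Benjamini-Hochberg adjustment. The study states biological replicates. Named genes were the 12 strongest sites shared by all 12 PLT libraries without a GFP peak, the highest site per bait, the genes with most sites and 3 lists of genes, of which 1 member is counted but not reported singly here. The members, lists and tests were chosen with earlier results of these data known. The matrix, the GC, leader and density measures and their tests were chosen after seeing these data, since the fixed letters were rare. Tests were checked on simulated data. Python 3.11.15, NumPy 2.4.6, pandas 2.3.3, SciPy 1.17.1 and matplotlib 3.10.9 were used. Alternatives were a stricter q-value (0.01), equal numbers of peaks (3837), overlap with the other replicate (1 bp, or 50% reciprocal), removal of GFP-overlapping peaks, peak midpoints, the longest transcript, another denominator, a replicate block and leaving out each library.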

Additional observations from a re-analysis of the deposited data

Results flagged for a closer look

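In 44 groups of 4 libraries of 1 bait, 4 had a library that stood apart from the other 3 by Dixon's criterion, which chance gives in about 5% of groups. The log2 ratio of intronic to other fold enrichment was −0.037 in the second GFP SAM replicate and 0 in the other GFP libraries. The log2 ratio of first to later introns was −0.014 in the second PLT7 SAM replicate, below the other PLT7 libraries. The share with the fixed letters was 0.806 points higher at intronic than at other summits in the first PLT5 SAM replicate, and lower in the other PLT5 libraries. GC content at intronic summits was 34.9% in the first PLT3 SAM replicate, below the other PLT3 libraries. For PLT7, the log2 ratio of intronic to other fold enrichment averaged −0.017 in the IM and 0.010 in the SAM, with both replicates of a tissue on the same side of 0, and this difference was not tested.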

How the results depend on the processing

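Of the alternatives to the comparisons of share, fold enrichment and fixed letters, other than leaving out a library, 93 kept direction and call, 19 lost the call, 3 gained one and 9 reversed. With summits inside protein-coding genes as denominator, the intron share differed from GFP by −31.0 (PLT3), −29.8 (PLT5) and −31.3 points (PLT7), PLT5 from PLT3 by 1.23 and PLT7 from PLT5 by −1.44 points. With equal numbers of peaks, PLT7 minus PLT3 was 0.821, PLT5 minus PLT3 −0.625, PLT7 minus PLT5 1.45, IM minus SAM −0.043 points, and the fixed letters −0.309 points (call lost). With peaks found in the other replicate, PLT7 minus PLT3 was 0.021 points, the log2 fold enrichment of intronic over other summits −0.0083 and the letters −0.449 points, and with 50% reciprocal overlap −0.010 and −0.373. With midpoints, PLT7 minus PLT3 was −0.624 points (a call gained), the log2 enrichment −0.0018 and the first-intron share of IM minus SAM −0.794 points. Without GFP-overlapping peaks, PLT5 minus PLT3 was −1.23, PLT7 minus PLT5 1.10 and IM minus SAM 0.790 points (a call gained). With the longest transcript, IM minus SAM was 0.462 points (a call gained) and the log2 enrichment of first over later introns 0.0043. The cause was not tested. Among the measures added later, midpoints reversed the matrix difference between intronic and other summits (−1.50 and, at 30% to 40% GC, −0.214 points). With the replicate number as a block, the exact test cannot go below p = 0.125 between 2 baits, so these calls were lost: the intron shares differed by the same 3.25, 1.89 and 3.12 points from GFP (p = 0.125, exact), PLT5 from PLT3 by −1.36 and PLT7 from PLT5 by 1.24 points (adjusted p = 0.188, exact), and the first-intron shares by −12.8, −10.9 and −12.2 points (p = 0.125, exact), while the first-intron difference of IM minus SAM, −1.66 points, kept its call under the block (p = 0.0313, exact). Same-numbered samples of different baits correlated at −0.100 to 0.339 over 121 bins of 1 Mb, and not every pair was over 0.1, so the pairing was not taken as established. Whether a number marks a shared pool of DNA is not given in the sources used here. Leaving out 1 library gave 1.65 to 2.17 points for PLT5 minus GFP, −1.59 to −1.08 for PLT5 minus PLT3, 0.954 to 1.47 for PLT7 minus PLT5, 0.195 to 0.650 for IM minus SAM and −0.014 to −0.0096 for the log2 enrichment. The leader share of PLT5 minus GFP ranged over −1.24 to 0.162 points and the log2 density ratio of PLT7 minus GFP over −0.11 to 0.0045, with both positive values without the first GFP SAM replicate and neither called. Peak numbers limit the smallest libraries most, and the lists hold no depth.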
